A study of Homo sapiens with 4 samples.

Results

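Prostate luminal surface antigens are the membrane and secreted proteins by which the secretory cells of the prostate, and the carcinomas that resemble them, present themselves to antibodies, imaging agents and engineered immune cells. The 9 genes described here were taken by name from the 57014 named rows of a gene count table: FOLH1, DPP4, STEAP1, STEAP2, EPCAM, CDH1, MUC1, CD24 and AGR2. Each name occurred on 1 row, and all 9 passed the filter on low counts. They were measured in 22Rv1, a human prostate cancer line kept in serum-containing medium. The control group (2 libraries, replicates 1 and 3) has the genotype "Wilde Type" and sgGFP in its library names, and the CD276 knockout group (2 libraries, also replicates 1 and 3) has sgCD276 in its library names. CD276 encodes B7-H3, itself an antibody target on prostate cancer cells, so the comparison asks how its knockout left the other surface antigens of the line. The labels do not say whether the knockout cells were a clone or a pool, and call the replicates biological without naming their cultures. The p-values here set the group difference against the variation between libraries of the same group, estimated with help from all genes tested. That variation may be technical in part.

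The members fall into 5 kinds of protein. FOLH1 (prostate-specific membrane antigen) and DPP4 (CD26) are peptidases with their active sites outside the cell. STEAP1 and STEAP2 are six-transmembrane proteins of a metalloreductase family. EPCAM and CDH1 (E-cadherin) hold epithelial cells together, CDH1 through catenins at adherens junctions. MUC1, a long glycosylated mucin, and CD24, a small GPI-anchored glycoprotein, form part of the sugar coat of the cell. AGR2 is a protein disulfide isomerase relative that assists mucin folding in the endoplasmic reticulum and can be secreted. Transcriptional repressors of the SNAI and ZEB families silence CDH1 when epithelial cells turn mesenchymal.

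The libraries held 20079050 to 25802417 counts on named rows, so that 1 normalized CPM (counts per 1e6 after scaling) stood for 19.4 to 26.3 counts. The CD276 transcript itself fell in normalized CPM from 50.9 ± 4.98 to 24.95 ± 1.84 (SD, n = 2), a log2 fold change of -1.03 ± 0.16 (SE; edgeR adjusted p = 0.00561, and 0.0812 without control replicate 3). In all, 4111 of 18043 genes tested (22.8%) were called, which here means an adjusted p under 0.05 in edgeR's quasi-likelihood test: 1780 (9.87%) were higher in knockout libraries and 2331 (12.9%) lower. With library totals in place of scaling factors 2340 were higher and 1781 lower, and over all genes the median log2 fold change moved from -0.0045 to 0.10. Mitochondrial genes took 5.84% and 6.15% of the counts in control libraries and 1.46% and 1.78% in knockout libraries, so the 2 groups of libraries differed well beyond the 9 members, and what part this has in the members' values was not tested.

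The line carried a luminal profile. All 12 luminal markers passed the filter, among them the keratin KRT8 at 1197 ± 70.7 normalized CPM in control libraries and 886 ± 317 in knockout libraries. Of these 12, SLC45A3, which encodes prostein, was called higher (1.04 ± 0.16, edgeR adjusted p = 0.00569) and the keratin KRT18 lower (-0.68 ± 0.19, edgeR adjusted p = 0.037). Neither was called when either control library was left out. The defining basal markers KRT5 and TP63 had 1 count each over all 4 libraries and DSG3 had 0. The basal list, of which 4 of 8 genes were tested, summed to 36.7 and 37.9 normalized CPM in control libraries and 12.99 and 23.3 in knockout libraries, most of it CD44, and its part in the antigens' values was not tested. The leukocyte markers CD3E and TYROBP and the endothelial markers PECAM1 and CDH5 were at 0 counts in every library.

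CDH1 transcript was 1.40-fold higher in the CD276 knockout libraries, AGR2 was 1.49-fold lower and MUC1 3.53-fold lower, while FOLH1, STEAP1, STEAP2, EPCAM, DPP4 and CD24 were not called. Of the 9 members 1 was called higher (11.1%), 2 lower (22.2%) and 6 not at all, beside 9.87% and 12.9% of all genes tested. In either direction this made 3 of 9, where 22.8% of all genes and 23.5% of protein-coding genes were called. With unadjusted p-values under 0.05 it was 4 of 9 (44.4%), beside 38.8% of all genes. The median log2 fold change was 0.06 over the members and -0.0045 over all genes, or 0.057 over the 13778 protein-coding genes. The knockout and control libraries did not overlap for 4 members (CDH1, MUC1, AGR2 and CD24), beside 65.9% of all genes tested: 2 had both knockouts above both controls (31.8% of all genes) and 2 below (34.1%).

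**Figure D1:**
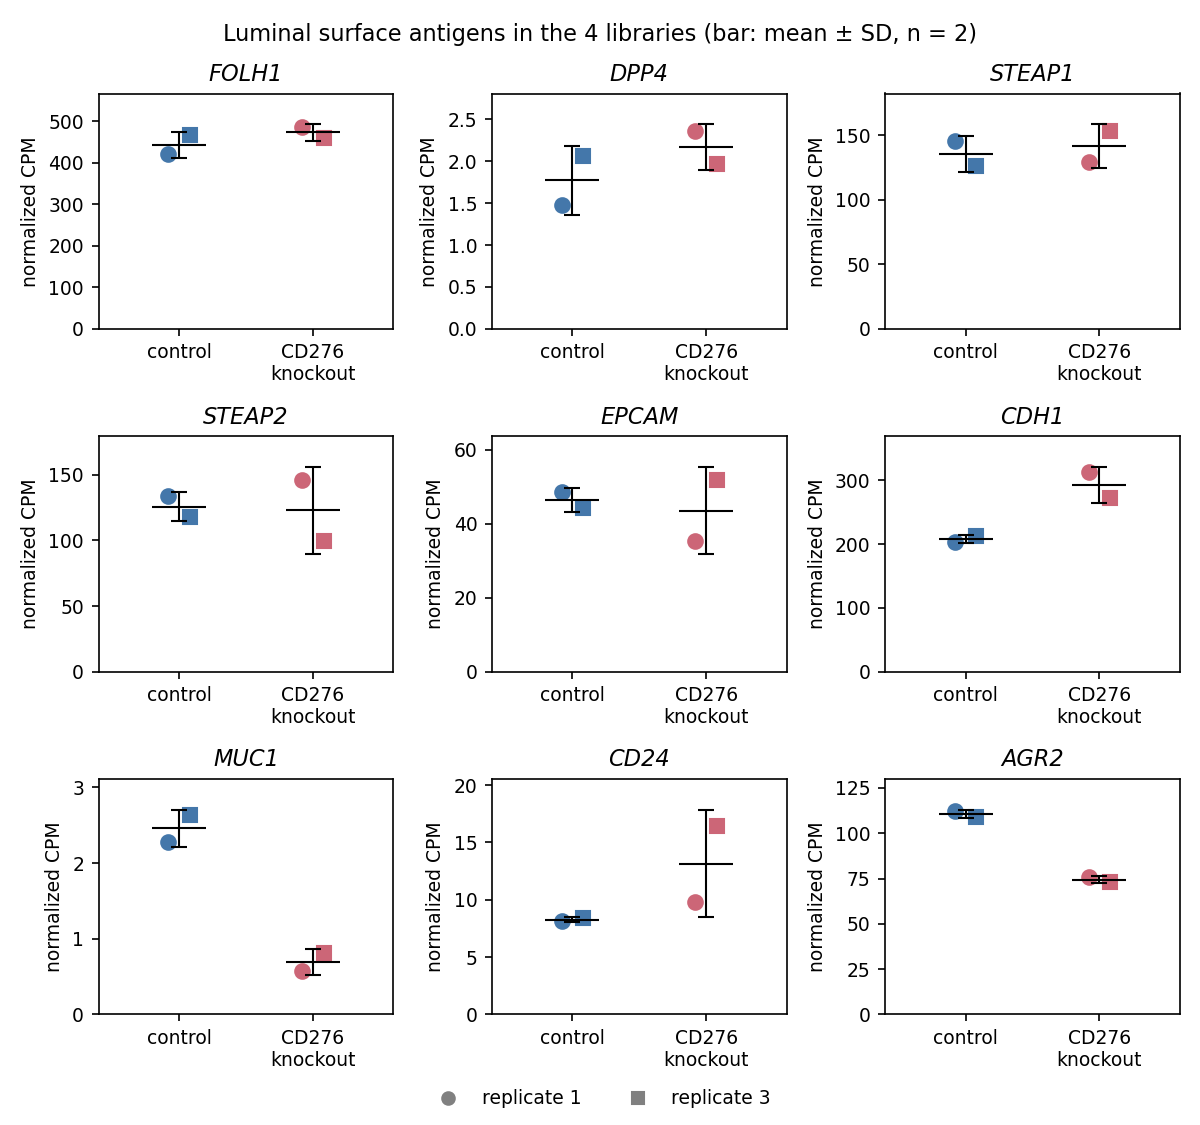
Normalized CPM (y axis, from 0) of the 9 genes in each of the 4 libraries, with circles for replicate 1, squares for replicate 3, and a bar with whiskers for the mean ± SD (n = 2). The groups are apart for CDH1, MUC1, AGR2 and CD24 and overlap for the other 5 genes.

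FOLH1 had the highest level of the 9 genes. It is the target of PSMA imaging and radioligand therapy. Its counts were 9395 and 9012 in control replicates 1 and 3 and 12777 and 11868 in knockout replicates 1 and 3. After scaling this came to 421 and 465 normalized CPM in control libraries and 487 and 459 in knockout libraries. Knockout replicate 3 lay between the 2 controls. The log2 fold change was 0.09 ± 0.16 (95% interval -0.26 to 0.45, edgeR adjusted p = 0.698), and with offsets for GC content and length it was -0.08. On GRCh38 the gene spans chromosome 11, 49146635 to 49208670, on the minus strand, with no exon overlapping a neighbour. Of the 75-base windows of its annotated transcripts, 18.1% also occur in FOLH1B, a transcribed pseudogene farther along the chromosome. FOLH1B itself had 51 to 89 counts, or 0.566% to 0.862% of those of FOLH1.

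DPP4 was close to the low end. This peptidase trims the N-terminal dipeptide of chemokines and incretins. It had 33 and 40 counts in control libraries and 62 and 51 in knockout libraries, or 1.48 and 2.07 against 2.36 and 1.97 normalized CPM. Knockout replicate 3 again lay between the controls. The log2 fold change was 0.29 ± 0.36 (edgeR adjusted p = 0.586), and its 95% interval ran from -0.53 to 1.12. DPP4 lies on chromosome 2 (161992241 to 162074542, minus strand), and 3.43% of its exonic bases lie under an antisense gene.

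Listed relatives of FOLH1 and other listed peptidases gave no call except for the transferrin receptor. TFRC, which shares the FOLH1 fold and brings iron into cells, rose in normalized CPM from 109 ± 4.38 to 221 ± 37.97 (1.03 ± 0.16, edgeR adjusted p = 0.00591, and 0.104 and 0.0605 without control replicate 1 or 3). NAALAD2 and NAALADL2, relatives of FOLH1, were at 1.35 ± 0.37 and 5.01 ± 0.44 normalized CPM in control libraries and 1.152 ± 0.23 and 5.87 ± 0.86 in knockout libraries. NAALADL1, another relative, had 11, 6, 2 and 6 counts and did not pass the filter. Of the other listed peptidases, DPP8 (0.03 ± 0.20), DPP9 (-0.15 ± 0.14), DPP3 (-0.10 ± 0.13), DPP7 (-0.60 ± 0.21, edgeR adjusted p = 0.067) and PREP (0.29 ± 0.16) were not called. FAP, the nearest relative of DPP4, had 1 count in control replicate 1, 1 in knockout replicate 3 and 0 in the other libraries. FOLH1 also clips glutamates from folates, and among 11 tested genes of folate and glutamate handling 1 was called higher and 0 lower (9.09%, beside 22.8% of all genes), the median being 0.19. The gene that rose was MTHFD2, a mitochondrial folate enzyme (0.78 ± 0.15, edgeR adjusted p = 0.0108), 33.2% of whose exonic bases overlap an antisense gene, and it was not called without control replicate 1 or 3 (0.235 and 0.127). At an unadjusted p under 0.05 there were 3 higher and 1 lower, and DESeq2 and voom called 0 lower. The 1 lower was SHMT1, a cytosolic folate enzyme named after its value was seen (-0.42 ± 0.13, edgeR adjusted p = 0.0501).

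STEAP1 and STEAP2 lie head to tail on chromosome 7, with 2760 bases between the end of STEAP1 (90154375 to 90164829) and the start of STEAP2 (90167590 to 90238137), both on the plus strand. STEAP1 is an antibody-drug and T-cell target in prostate cancer, and STEAP2 reduces iron and copper. STEAP1 was at 146 and 126 normalized CPM in control replicates 1 and 3 and at 129 and 154 in knockout replicates 1 and 3. STEAP2 was at 134 and 118 in control libraries and at 146 and 99.4 in knockout libraries. For both genes the knockout libraries lay on opposite sides of the control mean, and they did so in opposite order. Knockout replicate 1 had the lower STEAP1 and the higher STEAP2 level of the pair of knockouts, and knockout replicate 3 the reverse.

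Because both genes are counted in the same library, their ratio needs no scaling. STEAP1 counts were 1.09 and 1.07 times those of STEAP2 in control libraries, 0.884 times in knockout replicate 1 and 1.54 times in knockout replicate 3. This ratio was nearly alike in control libraries and stood on either side of them in knockout libraries. Neither gene was called, with log2 fold changes of 0.06 ± 0.15 for STEAP1 (95% interval -0.29 to 0.41, edgeR adjusted p = 0.808) and -0.03 ± 0.19 for STEAP2 (-0.47 to 0.40, edgeR adjusted p = 0.918). STEAP2 was called lower without knockout replicate 1 (-0.33, edgeR adjusted p = 0.00447) and higher without knockout replicate 3 (0.29, edgeR adjusted p = 0.00967), so its direction depended on which knockout library was read.

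The other STEAP genes were low. STEAP3, the ferrireductase of endosomes, was at 12.97 ± 2.06 and 15.3 ± 2.06 normalized CPM and STEAP4 at 1.17 ± 0.12 and 0.956 ± 0.64, and neither was called. STEAP1B had 1, 1, 6 and 8 counts and did not pass the filter. Of the 75-base windows of STEAP1, 13.6% also occur in STEAP1B, whose counts came to 0.0307% to 0.201% of those of STEAP1. The metal uptake list held 11 tested genes that reduce, take up, store or release metals, STEAP3 and STEAP4 among them. Of these, 5 were called higher and 0 lower (45.5% called, beside 22.8% of all genes), with a median of 0.60. At an unadjusted p under 0.05 there were 6 higher and 0 lower, and DESeq2 and voom also called 0 lower. Besides TFRC they were FTH1, the ferritin heavy chain (1.29 ± 0.19, edgeR adjusted p = 0.00507), the copper importer SLC31A1 (0.998 ± 0.16, 0.00644), and the metal importers SLC39A14 (1.01 ± 0.20, 0.012) and SLC39A8 (0.60 ± 0.15, 0.0225), the last named after its value was seen. Antisense genes overlap 62.4% of the exonic bases of FTH1. Without control replicate 1 the count was 0 and without control replicate 3 it was 1, while the medians were 0.62 and 0.56.

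**Figure D2:**
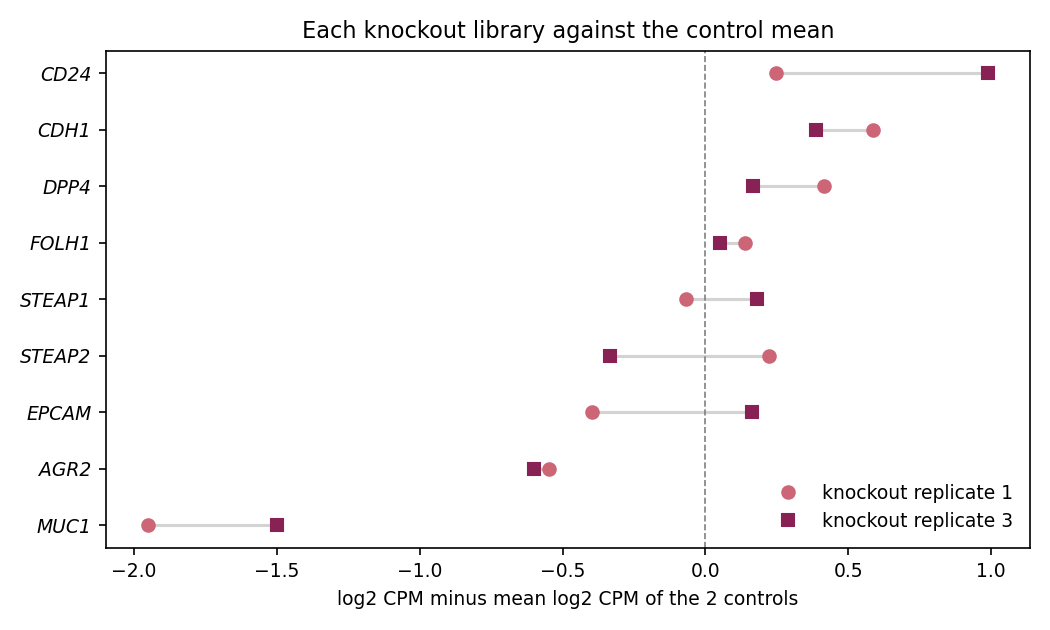
Difference in log2 CPM between each knockout library and the mean of the 2 controls (x axis) for the 9 genes, with circles for knockout replicate 1 and squares for knockout replicate 3. The 2 knockouts are close together for AGR2 (-0.55 and -0.60) and on opposite sides of 0 for STEAP2 (0.22 and -0.33), EPCAM (-0.40 and 0.16) and STEAP1 (-0.07 and 0.18).

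CDH1 rose while EPCAM, the other adhesion protein, did not move as a group. CDH1 had 4547 and 4121 counts in control libraries and 8203 and 7042 in knockout libraries, or 204 and 213 against 312 and 272 normalized CPM. Both knockouts stood above both controls. The log2 fold change was 0.49 ± 0.15 (1.40-fold, 95% interval 0.16 to 0.82, edgeR adjusted p = 0.0439), close to the threshold. The call was lost with upper quartile scaling (edgeR adjusted p = 0.0549), among nuclear protein-coding genes alone (0.058), with the replicate number as a block (0.0646), with the offsets for GC content and length (log2 fold change 0.26, 0.166), and without control replicate 1 or 3 (0.477 and 0.358). CDH1 lies on chromosome 16 (68737225 to 68835548, plus strand) and 5.62% of its exonic bases overlap an antisense gene. Whether counting used strand was not stated in the sources used here.

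EPCAM, a calcium-independent adhesion molecule and the antigen used to capture circulating tumour cells, had 1087 and 856 counts in control libraries and 925 and 1343 in knockout libraries. Its levels were 48.7 and 44.2 normalized CPM in control libraries, 35.2 in knockout replicate 1 and 51.9 in knockout replicate 3. Knockouts bracketed the controls, and the log2 fold change was -0.09 ± 0.20 (95% interval -0.54 to 0.35, edgeR adjusted p = 0.765). Without knockout replicate 3 EPCAM was called lower (-0.33, edgeR adjusted p = 0.00996), and without knockout replicate 1 it was at 0.17 (0.192). CDH1 counts were 4.18 and 4.81 times those of EPCAM in control libraries and 8.87 and 5.24 times in knockout libraries, so the ratio was higher in both knockouts, though only slightly so in replicate 3. EPCAM lies on chromosome 2 (47345158 to 47387601, plus strand) with no exon shared.

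Among junction proteins around CDH1 the share called was close to that of all genes. Of 30 tested 4 were called higher and 3 lower (23.3% called, beside 22.8% of all genes), with a median of 0.20. JUP, or plakoglobin, which binds the cadherin tail, rose in normalized CPM from 109 ± 0.065 to 195 ± 16.4 (0.83 ± 0.14, edgeR adjusted p = 0.00687). CTNNB1, or beta-catenin, was called higher as well (0.54 ± 0.15, edgeR adjusted p = 0.0374), as were the desmosome protein DSP (0.58 ± 0.17, 0.0404) and the tight junction protein OCLN (1.07 ± 0.27, 0.0238). The cornified envelope protein EVPL (-0.85 ± 0.14, 0.00732), the desmosomal cadherin DSC2 (-0.86 ± 0.16, 0.00902) and the polarity protein LLGL2 (-0.54 ± 0.14, 0.0262) were called lower. DSP, LLGL2 and CTNNB1 were named after their values were seen. Of these 30 genes 0 were called when either control library was left out, and library totals gave 7 higher and 2 lower. The other classical cadherins were not called: CDH2 (N-cadherin) was at 6.86 ± 0.43 and 9.62 ± 2.35 normalized CPM and CDH3 (P-cadherin) at 59.0 ± 0.33 and 72.0 ± 5.62.

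Repressors of epithelial genes gave 0 calls among 8 tested in edgeR, 0 by DESeq2 and 0 by voom, with a median of 0.19. At an unadjusted p under 0.05 there was 1, PRRX1, a mesenchymal homeobox factor (2.27 ± 0.72, edgeR adjusted p = 0.053), on 4, 2, 25 and 12 counts. Of 18 tested regulators of luminal and epithelial identity 3 were called higher and 1 lower (22.2%, no more than the 22.8% of all genes), with a median of 0.23. The ETS factor EHF rose in normalized CPM from 2.495 ± 0.49 to 7.24 ± 2.91 (1.54 ± 0.34, edgeR adjusted p = 0.0168). GRHL1, of the grainyhead family that activates CDH1 (0.61 ± 0.19, 0.0469), and XBP1, a factor of the secretory pathway (0.53 ± 0.14, 0.0254), rose as well. ELF3, another epithelial ETS factor, fell in normalized CPM from 180 ± 8.69 to 101 ± 35.2 (-0.84 ± 0.22, edgeR adjusted p = 0.0284). This list held 0 calls when either control library was left out.

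MUC1 had the largest fold change of the 9 genes, at a very low level. This mucin lines the apical surface of glandular cells, and its underglycosylated form is a tumour antigen. Its counts were 51 and 51 in control libraries and 15 and 21 in knockout libraries. Exact Poisson 95% intervals, which cover counting error only, were 38.0 to 67.1 for 51 counts, 8.40 to 24.7 for 15 and 13 to 32.1 for 21, so the counting intervals of controls and knockouts do not meet. After scaling it was at 2.28 and 2.63 normalized CPM in control libraries and 0.571 and 0.812 in knockout libraries. The log2 fold change was -1.82 ± 0.40 (3.53-fold lower, 95% interval -2.74 to -0.90, edgeR adjusted p = 0.0163). The offsets for GC content and length left it at -1.81 (edgeR adjusted p = 0.0136), and G and C make up 71.2% of its longest annotated transcript. Without control replicate 1 or 3 the adjusted p was 0.134 and 0.153, with log2 fold changes of -1.92 and -1.72. MUC1 lies on chromosome 1 (155185824 to 155192916, minus strand), and 1.02% of its exonic bases overlap another gene of that strand. In bulk RNA fewer cells expressing a gene and less RNA per cell cannot be told apart.

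AGR2, the other member that fell, was far more abundant. It had 2508 and 2110 counts in control libraries and 1988 and 1887 in knockout libraries, or 112 and 109 against 75.7 and 72.9 normalized CPM. The replicates of each group were nearly alike and the groups were well apart. The log2 fold change was -0.57 ± 0.13 (1.49-fold lower, 95% interval -0.87 to -0.28, edgeR adjusted p = 0.0175), and -0.685 with the offsets for GC content and length. With library totals in place of scaling factors it was -0.46 (edgeR adjusted p = 0.0451), close to the threshold. Without control replicate 1 or 3 the adjusted p rose to 0.305 and 0.221. AGR2 lies on chromosome 7 (16791811 to 16833433, minus strand), shares no exon, and has no 75-base window in the transcripts of another gene. Its paralogs AGR3, at 0.659 ± 0.24 and 0.385 ± 0.33 normalized CPM, and TXNDC12, at 68.2 ± 7.77 and 76.5 ± 5.88, were not called.

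Stretches before RefSeq starts of the 2 genes that fell are shown side by side as the members with a shared direction. Each line gives the 250 bases before a start listed by RefSeq on GRCh38.p14, 5′ to 3′ on the strand of the gene. Where several starts were listed, the one nearest the GENCODE gene start was taken, as for MUC1 (2 listed). The MUC1 stretch is chr1:155192916-155193165 and that of AGR2 is chr7:16805000-16805249, both minus strand. The MUC1 start lies 1 base from the GENCODE gene start, but the only AGR2 start listed lies 28434 bases from it, inside the gene span given above. Which start the cells used was not tested. Capitals mark matches, on either strand, to any of the following motifs. The E-box bound by SNAI and ZEB factors was searched as CACCTG. The GC box known for binding of Sp factors was searched as GGGCGG, and overlapping matches were kept. The sequence that positions the core transcription machinery, known as the TATA box, was searched as TATAAA. The repeat unit of steroid hormone response elements was searched as AGAACA.
MUC1: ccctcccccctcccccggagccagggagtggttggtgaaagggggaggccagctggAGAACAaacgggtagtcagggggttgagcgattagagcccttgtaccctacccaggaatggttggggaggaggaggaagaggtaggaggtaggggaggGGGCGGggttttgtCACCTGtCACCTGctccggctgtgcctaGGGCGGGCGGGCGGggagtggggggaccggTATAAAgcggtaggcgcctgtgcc
AGR2: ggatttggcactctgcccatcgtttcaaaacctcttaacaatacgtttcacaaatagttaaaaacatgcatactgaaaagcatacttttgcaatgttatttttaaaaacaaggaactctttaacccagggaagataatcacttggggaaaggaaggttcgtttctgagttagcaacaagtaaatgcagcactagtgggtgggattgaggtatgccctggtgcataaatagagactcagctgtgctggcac
The MUC1 stretch holds 2 E-boxes, 4 GC boxes of which 3 overlap, 1 TATA box and 1 AGAACA, with 66% G and C and 11 CpG sites. The AGR2 stretch holds 0 matches to any of these motifs, with 40.4% G and C and 3 CpG sites. Of 35116 RefSeq promoter stretches of this length 17.5% hold the E-box, 42.6% the GC box, 10.7% the TATA box and 12.4% AGAACA, and the median number of CpG sites is 11. Of the other members in that table, STEAP1 holds 2 E-boxes, DPP4 2 GC boxes, STEAP2 and CD24 1 GC box each, and they have 20 to 26 CpG sites. The STEAP2 start, the nearer of 2 listed, lies 44150 bases from the GENCODE gene start, inside the gene span, and the CD24 start is 1 of 3 listed and lies at the GENCODE start. The table had entries for DPP4, STEAP1, STEAP2, MUC1, CD24 and AGR2 and not for FOLH1, EPCAM and CDH1. These are matches of letters and do not show that a factor is bound.

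CD24 was higher in both knockouts, by unequal amounts. It is a mucin-like glycoprotein that signals to macrophages through Siglec receptors. Its counts were 181 and 163 in control libraries, 258 in knockout replicate 1 and 426 in knockout replicate 3. Its levels were 8.11 and 8.42 normalized CPM in control libraries against 9.83 and 16.5 in knockout libraries. The groups did not overlap, but knockout replicate 1 stood only just above the controls. The log2 fold change of 0.67 ± 0.26 (95% interval 0.07 to 1.27) did not pass (edgeR adjusted p = 0.096). It passed without knockout replicate 1 (1.01, edgeR adjusted p = 4.48e-08) and did not without knockout replicate 3 (0.32, 0.158). CD24 lies on chromosome 6 (106969831 to 106975627, minus strand), and 2.03% of its 75-base windows occur in a pseudogene.

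The other mucins ranged from nearly absent to well above MUC1. MUC4, a large membrane mucin, fell in normalized CPM from 1.35 ± 0.31 to 0.325 ± 0.13 (-2.04 ± 0.53, edgeR adjusted p = 0.0283, on 35, 22, 11 and 6 counts), and its call was lost with DESeq2 (0.0663) and without control replicate 1 or 3 (0.343 and 0.138). MUC20, of which 42.8% of exonic bases lie in another gene on its strand, was not called (-1.65 ± 0.53, edgeR adjusted p = 0.055). MUC13, the most abundant of the listed mucins, was at 29.9 ± 1.81 and 28.7 ± 6.92 normalized CPM (-0.06 ± 0.19), and MUC16 had 1 count in all. Of 21 tested enzymes that build mucin O-glycans and attach GPI anchors, such as that of CD24, 6 were called higher and 0 lower (28.6% called, beside 22.8% of all genes), with a median of 0.23. At an unadjusted p under 0.05 there were 7 higher and 2 lower, and DESeq2 and voom called 0 lower. GALNT1 and GALNT2, which add the sugar that starts an O-glycan, rose from 17.6 ± 2.95 to 38.9 ± 5.01 and from 22.9 ± 5.14 to 49.2 ± 1.16 normalized CPM (1.146 ± 0.19 and 1.11 ± 0.18, edgeR adjusted p = 0.00652 and 0.00683). GALNT3 (0.54 ± 0.15) and the GPI transamidase subunit PIGS (0.60 ± 0.13) rose too, with adjusted p of 0.0378 and 0.0151. The count was 0 without control replicate 1 and 2 without control replicate 3, and with offsets for GC content and length it was 3 higher and 1 lower.

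Proteases that cut EPCAM, CDH1 and MUC1 off the cell moved both ways. ADAM10, which sheds CDH1, and ADAM17, which cleaves EPCAM and MUC1, were called higher (0.52 ± 0.15 and 0.76 ± 0.20, edgeR adjusted p = 0.0389 and 0.0283). PSENEN, a subunit of the gamma-secretase complex, was called lower (-0.90 ± 0.19, 0.0152), and 41% of its exonic bases overlap antisense genes and 15.4% genes of its own strand. Of the 15 genes tested 4 were higher and 1 lower (33.3% called, beside 22.8% of all genes), with a median of 0.25. Leaving out control replicate 1 gave 0 calls and leaving out control replicate 3 gave 0 higher and 1 lower, and the list gave 3 higher and 1 lower with the GC and length offsets.

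**Figure D3:**
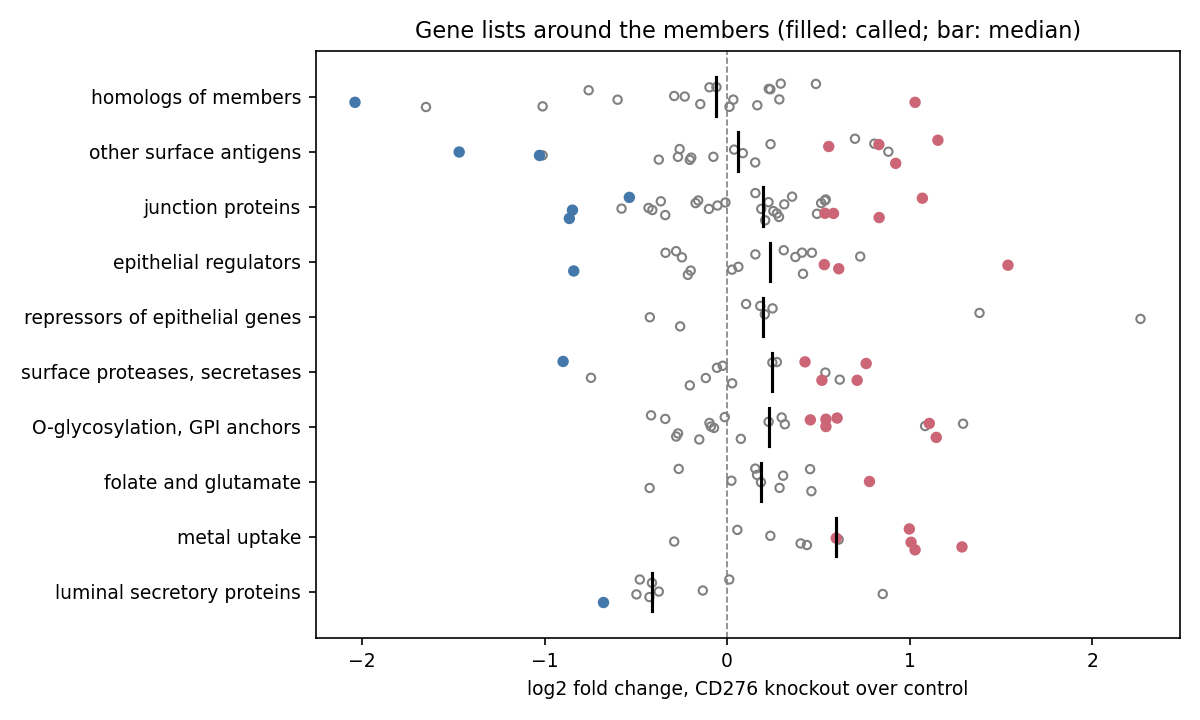
Log2 fold change of knockout over control (x axis) for every tested gene of 10 lists around the antigens, each point a gene, filled where the edgeR adjusted p was under 0.05, with a black bar at the median of each list. The metal uptake list has the highest median (0.60) and the luminal secretory proteins the lowest (-0.41).

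Other surface antigens under study as therapy targets also went both ways. Of 20 tested 4 were called higher and 2 lower (30% called, beside 22.8% of all genes), with a median of 0.06. ADAM9, a membrane protease, rose in normalized CPM from 31.5 ± 3.65 to 70.2 ± 18.7 (1.16 ± 0.20, edgeR adjusted p = 0.00769), and the zinc transporter SLC39A6, the antigen LIV-1, from 178 ± 3.34 to 317 ± 30.0 (0.83 ± 0.15, 0.00793). Beside CD276 itself the somatostatin receptor SSTR2 fell in normalized CPM from 4.04 ± 0.24 to 1.46 ± 0.093 (-1.47 ± 0.31, edgeR adjusted p = 0.0138). The list gave 1 higher and 1 lower without control replicate 1 and 0 calls without control replicate 3.

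Secretory proteins of luminal cells had a median of -0.41, with 0 called higher and 1 lower of 9 tested (11.1%, beside 22.8% of all genes). At an unadjusted p under 0.05 there were 1 higher and 2 lower, and DESeq2 and voom called 0 higher. KLK4, a kallikrein protease, fell in normalized CPM from 746 ± 62.2 to 465 ± 35.8 (-0.68 ± 0.17, edgeR adjusted p = 0.0231). Its adjusted p was 0.0687 with offsets for GC content and length, and 0.378 and 0.207 without control replicate 1 or 3. KLK2 (-0.37 ± 0.18, edgeR adjusted p = 0.162), also a kallikrein, and KLK3, which encodes prostate-specific antigen (0.01 ± 0.16, 0.964), were not called.

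**Figure D4:**
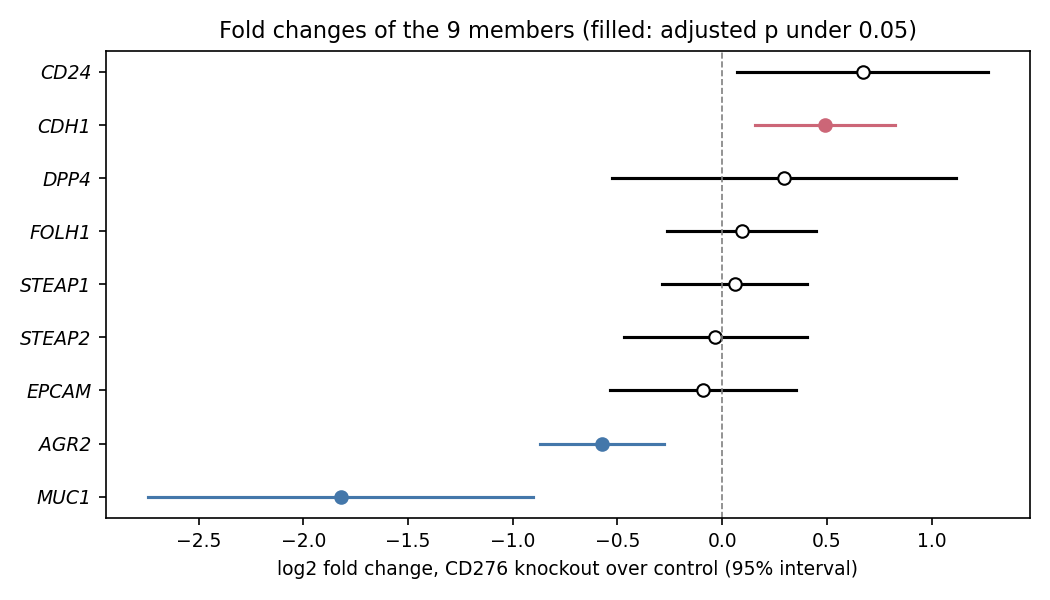
Log2 fold change of knockout over control (x axis) of the 9 genes with its 95% interval, filled where the edgeR adjusted p was under 0.05. CDH1 lies to the right of 0 and AGR2 and MUC1 to the left, with intervals that exclude 0, and the interval of CD24 (0.07 to 1.27) excludes 0 without passing the adjusted threshold.

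The order of the antigens was largely the same in both groups, with a pair of exchanges. Levels between genes are given as normalized CPM per kb of annotated exons, which understates genes read mainly from a short isoform. In the controls the order ran FOLH1 (110 and 122), STEAP1 (89.7 and 77.5), AGR2 (39.5 and 38.3), CDH1 (33.0 and 34.4), EPCAM (19.3 and 17.5), STEAP2 (15.3 and 13.5), CD24 (2.62 and 2.72), MUC1 (0.484 and 0.558) and DPP4 (0.295 and 0.412). No neighbours in this order overlapped between the 2 control libraries. In the knockouts CDH1 (50.6 and 44.1) stood above AGR2 (26.6 and 25.6), and DPP4 (0.471 and 0.394) above MUC1 (0.121 and 0.172). EPCAM (13.98 and 20.6) and STEAP2 (16.8 and 11.4) overlapped there, and the other neighbours did not. Counts of CDH1 were 1.81 and 1.95 times those of AGR2 in control libraries and 4.13 and 3.73 times in knockout libraries, a ratio that needs no scaling and did not overlap between the groups. With 2 libraries a group, an exact permutation test of such a ratio cannot reach the threshold, so none is given.

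**Figure D5:**
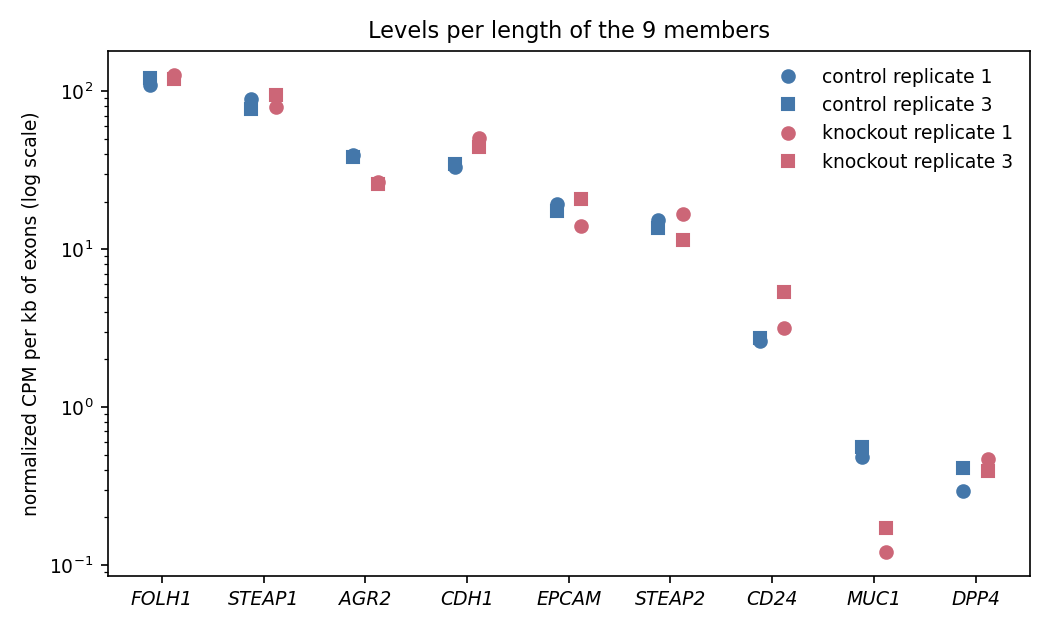
Normalized CPM per kb of exons on a log axis for the 9 genes (x axis, ordered by their control mean) in each library, blue for controls and red for knockouts, circles for replicate 1 and squares for replicate 3. CDH1 and AGR2 exchange places between the groups, as do MUC1 and DPP4.

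All 9 genes together took 0.104% and 0.105% of the counts in control libraries and 0.129% and 0.113% in knockout libraries, of which FOLH1 was 0.0405% and 0.0449% in control libraries and 0.0523% and 0.046% in knockout libraries. The replicates of a group differed by up to 0.46 on the log2 scale among the controls (DPP4, control replicate 3 higher) and by up to 0.74 among the knockouts (CD24, knockout replicate 3 higher). For AGR2 the replicates differed by 0.04 and 0.05, and for STEAP2 and EPCAM the knockouts differed by 0.56 each, in opposite directions.

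Among 4-library profiles of protein-coding genes with at least 5 normalized CPM, those nearest to each antigen were found by the root-mean-square difference of centred log2 CPM. For CDH1 they were ATP6V1C1 and ELP3 (differences of 0.012 and 0.015), for AGR2 ANAPC2 and KAT2A (0.011 and 0.012), and for CD24 ITM2C and LTBP2 (0.034 and 0.035). For MUC1 they were MT-ND1 at 0.039, a mitochondrial gene that fell from 3453 to 1024 normalized CPM, and the keratin KRT7 at 0.10. For FOLH1 they were HOMEZ and IFNAR2 (0.012 and 0.013), for STEAP1 LSM2 and SMPD3 (0.013 and 0.016), and for STEAP2 C5 and ZFP82 (0.018 and 0.023). EPCAM had RPL21 and TPRKB (0.015 and 0.018) and DPP4 had ZBTB45 and ARHGEF35 (0.034 and 0.037). With 4 libraries many genes share such a profile, and nearness here describes these libraries only.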

How the data were processed

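Poly(A)-selected RNA of 22Rv1 cells was sequenced from 2 control and 2 CD276 knockout libraries. The authors deposited raw gene counts, 1 column per library. The tools listed per the submitters' processing notes are Trimmomatic 0.36, STAR 2.5.2b, Subread 1.5.2 and its featureCounts, with the build GRCh38. The sources used here do not state how strand and multi-mapping reads were treated or which annotation was counted. The 486 rows without a gene name (0.0191% to 0.029% of counts) were left out, and 0 columns went unused.

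Counts were filtered with filterByExpr, scaled by TMM (factors 0.962, 0.965, 1.07 (knockout replicate 1) and 1.00) and tested for the group term by robust quasi-likelihood (glmQLFit, glmQLFTest) in edgeR 4.0.16 under R 4.3.3, with Benjamini-Hochberg adjustment over all 18043 genes. The SE is the log2 fold change divided by the square root of F, and 95% intervals use the t distribution with edgeR's degrees of freedom. Gene type, position, exon overlap, exonic length and GC content came from GENCODE 29. DESeq2 1.42.0, limma 3.58.1 (voom) and the other settings were alternatives. On simulated counts of this comparison the fit recovered 1.5% of genes changed 1.5-fold (17593 tested), 65.5% of those changed 2-fold (17587 tested) and 96.5% of those changed 4-fold (17620 tested), with 0, 14 and 18 false calls. Each simulation changed 200 genes, while 4111 were called in the data, so these shares need not hold for this comparison. In the simulations most 1.5-fold and some 2-fold changes went undetected, and changes of that size can be missed here too.

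The members and lists were chosen with earlier results of these data known. The rule for named genes takes the 9 members, CD276, the homologs of members, up to 4 called genes of each list by smallest p, and the 2 nearest profiles of each member; genes named outside it are marked or are markers. Some genes of the lists are counted and not reported by name here.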

Additional observations from a re-analysis of the deposited data

How the results depend on the processing

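Leaving out 1 library gave 312 to 9198 called genes and 0 to 5 called members. Without control replicate 1 or 3 there were 312 and 599 calls and 0 members, and without knockout replicate 1 or 3 there were 8713 and 9198 calls and 5 members each. The lone library of a group is then assumed to vary like the other group. At an adjusted p under 0.01 there were 1036 called genes and 0 members. Under RLE scaling, upper quartile scaling, library totals, no filter, a filter of 50 counts, DESeq2, voom, robust=FALSE, the GC and length offsets and nuclear protein-coding genes alone, the counts stayed within 1.5 times, with 2985 to 5353 genes and 2 to 4 members.

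Small values changed sign: STEAP2 was at 0.0851 with library totals, 0.0161 with DESeq2, 0.0594 without control replicate 1 and 0.287 without knockout replicate 3, within -0.3264 to 0.287 when 1 library was left out. EPCAM was at 0.0069 with library totals and 0.1715 without knockout replicate 1, within -0.3315 to 0.1715. STEAP1 was at -0.0415 without control replicate 3 and -0.0028 without knockout replicate 3, within -0.0415 to 0.189, and FOLH1 was at -0.08305 with the offsets. The cause was not tested. MUC1 and AGR2 were called in 13 of 16 alternatives, CDH1 in 9 and CD24 in 3, one of them without a filter (edgeR adjusted p = 0.0202).

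Labels give both groups the replicate numbers 1 and 3. The deviations of same-numbered libraries had a correlation of -0.0152 over genes. The labels do not say whether same-numbered libraries share more than the number. With the replicate number as a block 4843 genes and 3 members were called: MUC1, AGR2 and CD24 (edgeR adjusted p = 0.0453), and not CDH1 (0.0646). Depth limited MUC1 and DPP4, with 15 to 62 counts a library.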

Other observations

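Markers of other cell types were not uniform between the groups. Among 7 tested neuroendocrine markers, with a median log2 fold change of -0.27, the granule proteins SCG2 (-1.97 ± 0.26, edgeR adjusted p = 0.0038) and CHGA (-1.46 ± 0.35, 0.0211) fell. INSM1 had 0 to 7 counts. The summed level of the list was 609 and 616 normalized CPM in control libraries and 465 and 598 in knockout libraries.

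Of 4 tested basal markers CD44 fell in normalized CPM from 33.7 ± 0.53 to 13.7 ± 4.95 (-1.30 ± 0.24, edgeR adjusted p = 0.00926) and 0 rose. At an unadjusted p under 0.05 NGFR, named after its value was seen, was the 1 higher (1.52 ± 0.52, edgeR adjusted p = 0.0664), and DESeq2 and voom called 0 higher. Of 6 tested stromal markers the matrix proteins LUM (0.84 ± 0.21, edgeR adjusted p = 0.0244) and COL1A1 (-1.001 ± 0.21, 0.0139) moved in opposite directions. Of SCG2, CHGA, LUM, COL1A1 and CD44, only SCG2 and CD44 were called when either control library was left out. The part of these markers in the values of the surface antigens was not tested.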
